A study of Sus scrofa with 12 samples.

Results

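miR-224 (ssc-miR-224) and miR-452 (ssc-miR-452) are pig microRNAs (miRNAs), small regulatory RNAs that lower the output of messages they pair with. They lie next to each other in the genome, and their rows are 2 of the 252 mature miRNAs measured in extracellular vesicles, lipid-bound particles shed into the culture medium. The rows were selected on their near absence from the libraries of 1 culture method, perfusion: the values that chose them are the normalized read counts there, which are given as a description and were not tested. Neither row name states which arm of the hairpin it holds. The vesicles came from wild-type bone marrow mesenchymal stromal cells of juvenile Yucatan minipigs, expanded on plastic, frozen, and then grown by 3 methods. Cells on tissue culture plates were kept in DMEM with 10% fetal bovine serum and antibiotics. Cells on bioscaffolds in a perfusion bioreactor received medium circulating at 4 mL/min, for which the labels give no serum content. Cells on microcarriers in a spinner flask spent 2 hours without serum before 10% fetal bovine serum was added. Each of 4 donors gave 1 library per method, so each group has 4 libraries and the same 4 animals.

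In humans the hairpins of miR-224 and miR-452 lie in an intron of GABRE, the X-linked gene of the epsilon subunit of the GABA-A receptor, and can be made from the host gene's transcript. The RefSeq gene table of the pig (assembly Sscrofa11.1) also places MIR224 and MIR452 on chromosome X within the span of GABRE, with no other gene between them and no other gene inside GABRE. miR-224 is known in mouse ovarian granulosa cells as a miRNA raised by TGF-beta that represses Smad4, and in humans for its high level in liver cancer. miR-452 is known in the mouse for its enrichment in neural crest cells.

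Depth matters for rows this low. The libraries held 264407 to 3253003 reads, recovered from the steps between the deposited values, with 264407 to 3253003 on plates, 671012 to 1614726 in perfusion and 607776 to 2244584 on microcarriers. No row of any library listed a single read, so a listed 0 may hide 1 read. The shallowest library was that of plate donor 2.

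miR-224 was found in 3 of 4 plate libraries, 1 of 4 perfusion libraries and 4 of 4 microcarrier libraries. On plates its normalized read count was 13.8 in donor 1, 0 in donor 2, 13.8 in donor 3 and 18.7 in donor 4. In perfusion it was listed at 0 in donors 1, 2 and 4 and stood at 2.71 in donor 3. On microcarriers it was 84.7 in donor 1, 23.9 in donor 2, 9.57 in donor 3 and 27.1 in donor 4. Every microcarrier library was above every perfusion library. The plate and perfusion groups overlapped through plate donor 2 alone, and the plate and microcarrier groups overlapped through microcarrier donor 3.

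miR-452 was lower than its neighbour in all but 1 of the libraries that listed them, and no perfusion library held a value above 0. Its normalized read count on plates was 5.38 in donor 1, 0 in donor 2, 9.42 in donor 3 and 15.9 in donor 4. On microcarriers it was 35.3 in donor 1, 8.76 in donor 2, 12.1 in donor 3 and 4.52 in donor 4. Microcarrier donor 1 was again the highest library, and the plate and microcarrier groups overlapped, with microcarrier donors 2, 3 and 4 inside the range of the plates.

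**Figure D1:**
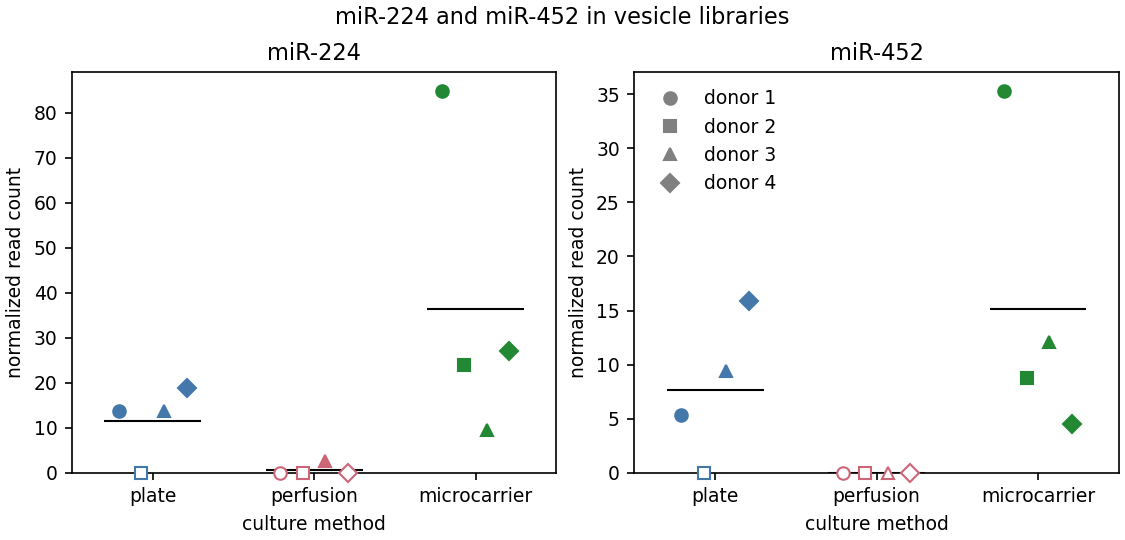
Normalized read count (linear axis) of miR-224 and miR-452 by culture method, with 1 symbol shape per donor, open symbols for libraries listed at 0 and a horizontal line at each group's mean. In perfusion the highest value is 2.71, and microcarrier donor 1 stands highest in both panels at 84.7 and 35.3.

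Few reads lay behind these values. miR-224 was counted in 86 reads on plates, 2 in perfusion and 218 on microcarriers, of which 161 came from donor 1. miR-452 was counted in 61 reads on plates and 99 on microcarriers, 67 of them from donor 1. Scaled to equal library size (RPM), miR-224 stood at 71.7 in microcarrier donor 1 (exact Clopper-Pearson 95% interval 61.1 to 83.7) and at 14.1 in plate donor 4 (10.4 to 18.9). miR-452 stood at 29.8 (23.1 to 37.9) and 12.0 (8.53 to 16.4) in the same libraries. These intervals cover counting error only, since PCR reads without molecular identifiers are not independent molecules.

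The listed zeros differ in what their depth could have shown. At the pooled plate share, plate donor 2 would have held 3.35 reads of miR-224 and 2.38 of miR-452, so a lower level there was not detectable at this depth. At the same share the perfusion libraries of donors 1, 2, 3 and 4 would have held 18.6, 8.51, 9.91 and 20.5 reads of miR-224, against 0, 0, 2 and 0 listed. For miR-452 these numbers were 13.2, 6.04, 7.03 and 14.5, against 0 listed in each. Over pooled reads, miR-224 was 28.8 times as frequent on plates as in perfusion (counting interval 7.73 to 241) and 76.7 times as frequent on microcarriers (21.0 to 638). Without microcarrier donor 1 the second ratio was 30.8 (8.14 to 260), and without perfusion donor 4 the ratios were 18.5 and 49.4. The 2 perfusion reads came from donor 3 alone, so without it no ratio could be formed. The ratios and their intervals describe the contrast that chose the row and test nothing. The intervals pool the reads of 4 donors and leave out the spread between donors. Taken over the rows of the table together, every replicate pair differed beyond sampling noise, which was not examined for miR-224 alone. No fold is given for miR-452, which had no reads listed in perfusion. In vesicle RNA, fewer vesicles carrying a miRNA and fewer copies per vesicle cannot be told apart.

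Near absence of this kind, for which the members were chosen, was rare in the table. Of the 252 rows, 4 were listed at 0 in 3 or 4 perfusion libraries, namely miR-224, miR-452, miR-223 and miR-187. The myeloid miR-223 had stood at 15.1 to 70.7 on plates and 18.1 to 218.9 on microcarriers. miR-187 was at 0 in 3 plate libraries as well and never exceeded 9.04. On plates 2 rows, and on microcarriers 1, were listed at 0 in 3 or 4 libraries.

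Most other rows of similar level were present in perfusion. The mean over the 8 plate and microcarrier libraries was 24.0 for miR-224 and 11.4 for miR-452, which ranked them at positions 205 and 227. A window of means from 10 to 30, chosen after the values were seen, held 42 rows, the members included. Of these 42, 34 were above 0 in all 4 perfusion libraries, 30 had a perfusion mean of at least 10, and 2, the members, were at 0 in 3 or 4. Since the members were chosen for those zeros, this count describes them and tests nothing. In the same window miR-194a-5p had a perfusion mean of 1.53. Just above the window, at a mean of 30.2, miR-382 had a perfusion mean of 0.92.

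The rows next to the members in level were compared too. On plates miR-224 ranked at position 222 with a mean of 11.6 ± 8.07 (SD, n = 4), between miR-424-3p (11.9 ± 3.78) and miR-7-3p (11.2 ± 7.73). In perfusion miR-424-3p averaged 27.4 and miR-7-3p stood at 11.6 to 20.3. On microcarriers miR-224 ranked at position 183 with a mean of 36.3 ± 33.1, between miR-454, at 114.6 to 123.1 in perfusion, and miR-425-3p, at 33.0 to 50.6 there.

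For miR-452 the plate mean was 7.67 ± 6.70 (SD, n = 4; position 232), between miR-374b-3p, at 5.06 to 29.1 in perfusion, and miR-411, at 0 to 4.34. Its microcarrier mean was 15.2 ± 13.7 (position 219), between miR-133a-3p, at 34.5 to 69.9 in perfusion, and miR-664-5p, at 0 to 12.0. Of the neighbours in level, miR-411 and miR-664-5p thus also reached 0 in perfusion.

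**Figure D2:**
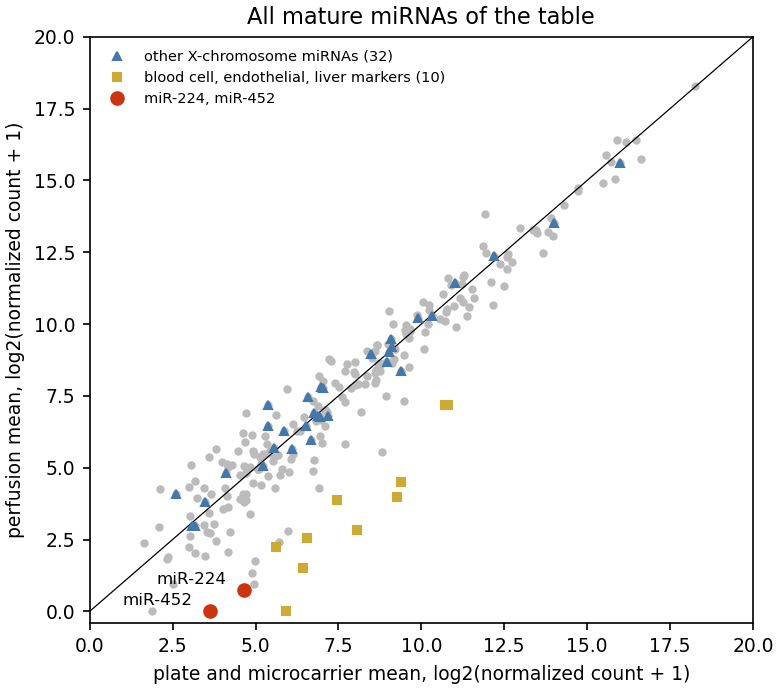
Mean normalized read count of all 252 miRNAs, plotted as log2(mean + 1), in the 8 plate and microcarrier libraries (x axis) and in the 4 perfusion libraries (y axis), with the line of equal level. miR-224 and miR-452 (red circles) and the 10 blood cell, endothelial and liver markers (yellow squares) lie well below the line, while 32 other X-chromosome miRNAs (blue triangles) lie near it.

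The comparison of microcarriers with plates involves no perfusion library, and the members were tested in it. miR-224 averaged 36.3 ± 33.1 on microcarriers and 11.6 ± 8.07 on plates (SD, n = 4), and it was higher on microcarriers in 3 of 4 donors. miR-452 averaged 15.2 ± 13.7 against 7.67 ± 6.70, also higher in 3 of 4 donors. The donor that ran the other way was donor 3 for miR-224 and donor 4 for miR-452.

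Neither difference passed an adjusted p of 0.05 in limma, where 2.38% of the 252 miRNAs did. The log2 fold change of value + 1 was 1.80 ± 0.95 (SE) for miR-224, with a 95% interval from -0.25 to 3.85 (limma adjusted p = 0.262). For miR-452 it was 1.13 ± 0.88, with an interval from -0.76 to 3.02 (limma adjusted p = 0.447). The intervals reach from falls, through no difference, to several-fold rises, so the members cannot be said to be alike on plates and microcarriers. Without plate donor 2, where both were listed at 0, the changes shrank to 0.79 and 0.28, and without microcarrier donor 1 to 1.26 and 0.62. With donor as a block the adjusted p was 0.201 and 0.401, while the number of miRNAs called rose from 6 to 23.

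The size of the difference varied by donor. In donor 1 miR-224 was 6.13 times and miR-452 6.56 times as high on microcarriers as on plates. In donor 3 the ratios were 0.693 for miR-224 and 1.29 for miR-452, and in donor 4 they were 1.45 and 0.285. In donor 2 no ratio could be formed, since the plate library listed both at 0.

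Within a library the balance of the members was looked at next, since the choice of the rows did not use it. miR-224 supplied 72.0% of the reads of the pair in plate donor 1, 59.5% in donor 3 and 54.1% in donor 4, from 25, 37 and 85 reads. On microcarriers its share was 70.6% in donor 1, 73.2% in donor 2, 44.1% in donor 3 and 85.7% in donor 4, from 228, 41, 34 and 14 reads. The exact 95% intervals ran from 64.2% to 76.4% in microcarrier donor 1 and from 27.2% to 62.1% in microcarrier donor 3, so these libraries differed beyond counting error. Microcarrier donor 3 was the one library with more reads of miR-452 than of miR-224. Library preparation can favour one short RNA over another, so a share of reads is not a molar share, and the 2 values carry no length correction.

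By culture method, the log2 ratio of miR-224 to miR-452 (each value + 1) was 1.16 ± 1.10 on microcarriers and 0.49 ± 0.53 on plates (SD, n = 4). The difference of 0.67 did not pass (exact permutation test, two-sided, p = 0.314). This test treats the libraries as independent, although both groups come from the same donors. Plate donor 2, listed at 0 for both, enters with a ratio of 0, and without it the difference was 0.51 (exact permutation p = 0.514). With 4 libraries against 4 the smallest p this test allows is 0.0286.

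**Figure D3:**
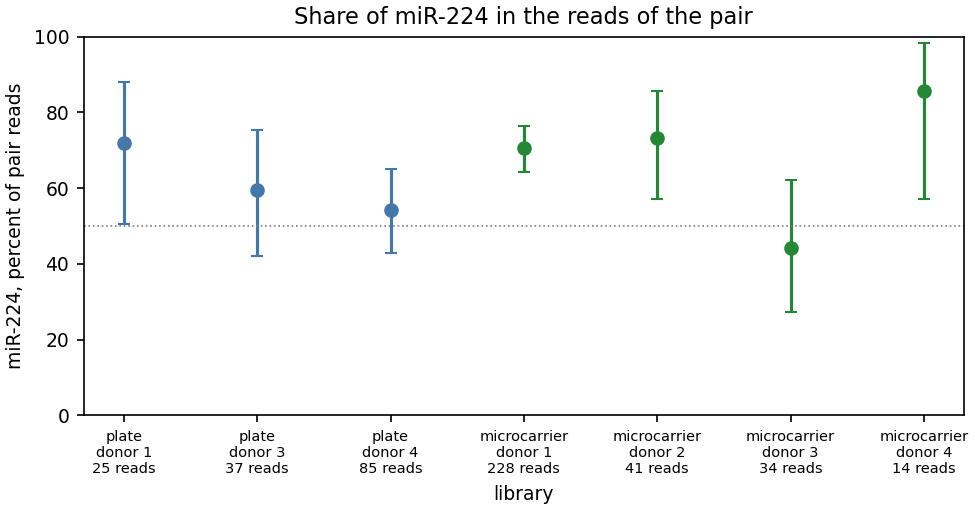
Percent of the pair's reads that belong to miR-224 in the 7 plate (blue) and microcarrier (green) libraries that listed both miRNAs, with exact 95% intervals for counting error and a dotted line at 50%. The share ranges from 44.1% in microcarrier donor 3 to 85.7% in microcarrier donor 4, where it rests on 14 reads.

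Over the 8 plate and microcarrier libraries, the miRNAs whose log2(value + 1) was most like that of miR-224 were miR-342 (Pearson r 0.92), miR-664-5p (0.91), miR-192 (0.90), miR-452 (0.88) and miR-30c-1-3p (0.84). For miR-452 they were miR-30c-1-3p (0.92), miR-664-5p (0.90), miR-224 (0.88), miR-191 (0.88) and miR-361-5p (0.85). These are descriptions over 8 libraries of 4 shared donors. The likeness of the members to each other rested on extreme libraries: Pearson r was 0.58 without plate donor 2 and -0.38 when microcarrier donor 1 was left out too, over 6 libraries. Spearman's rho over the 8 libraries was 0.36. Over all 12 libraries each member was the closest match of the other (Pearson r 0.93), a value that includes the perfusion libraries that chose the rows. miR-192, miR-103 and miR-223 were among the next 4 for both members, with miR-126-5p for miR-224 and miR-185 for miR-452.

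The other miRNAs of the X chromosome were looked at in perfusion too. The list of X-chromosome miRNAs that lie in introns of protein genes in humans had 13 measured rows. Against plates, 2 of the 13 rose in perfusion and none fell (limma adjusted p under 0.05). Of all rows 20.6% were called, 10.3% higher and 10.3% lower. The 2 of the list were miR-500-5p, at 144.0 ± 35.9 against 37.6 ± 8.49 (SD, n = 4, log2 fold change 1.90 ± 0.35, SE, limma adjusted p = 0.00367), and miR-362, at 85.9 ± 15.1 against 31.1 ± 7.27 (1.44 ± 0.33, limma adjusted p = 0.00996). In humans both come from an intron of CLCN5, a chloride channel gene, but in the pig gene table no protein gene spans either. Against microcarriers 1 of the 13 rose, miR-500-5p, and none fell, where 15.5% of all rows were called, 5.56% higher and 9.92% lower. In a list of 13 rows, the lack of falls is near these shares of all rows. The list's median log2 fold change was 0.03 against plates and 0.01 against microcarriers, beside -0.06 and -0.07 over all rows.

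Of the 13, miR-98 and both arms of let-7f share the span of HUWE1 in the pig table, and the arms of miR-361 that of CHM; let-7f also has a copy on chromosome 3. miR-361-5p, one of the miRNAs closest to miR-452 on plates and microcarriers, stood at 95.2 to 124.5 in perfusion and averaged 109.4 there, with no call against either group.

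The other 19 X-chromosome rows came from clusters such as those of miR-424, miR-222 and miR-106a. In perfusion 2 of the 19 were higher than on plates and none lower, beside 10.3% of all rows in each direction. The 2 were miR-20b (1.35 ± 0.44) and miR-424-3p (1.18 ± 0.39). Without plate donor 2 neither of these calls held, with limma adjusted p-values of 0.108 and 0.0787. The call of miR-20b also ended without plate donor 1 or 4 or perfusion donor 2, 3 or 4, and in a limma-voom fit. That of miR-424-3p ended without any single plate or perfusion library or microcarrier donor 2 or 3. It ended as well with a pseudocount of 0.1 and in a fit of 2 groups. Against microcarriers, where 5.56% of all rows were higher and 9.92% lower, miR-503 was higher (1.24 ± 0.32). Its call ended without perfusion donor 1, 2 or 4. miR-221-5p was lower there (-1.62 ± 0.48). Its call ended without perfusion donor 2, 3 or 4 or microcarrier donor 1, 2 or 4, and when values were scaled to library totals. With donor as a block, 3 of the 19 were higher and none lower against plates, and 3 were higher and 1 lower against microcarriers. Calls over all 252 rows rose too, from 39 to 59 against microcarriers. Against plates the alternatives other than leaving out 1 library called 49 to 64 rows, beside 52 in the main fit. The medians of the 19 were 0.32 and -0.10. On microcarriers against plates, where 2.38% of all rows were called, no X-chromosome row of either list was called. With donor as a block, where 23 of the 252 rows were called, 3 of the 19 were higher, namely miR-221-5p, miR-106a and miR-222. Without plate donor 1, where 12 rows were called, the first and last of these were higher.

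Markers of blood cells, endothelium and liver were also low in perfusion, the contrast that chose the members. All 10 listed markers fell in perfusion against plates and all 10 against microcarriers, beside 10.3% and 9.92% of all rows lower. The medians of the 10 were -3.98 and -4.57 on the log2 scale. The list had been chosen with these falls known. Against plates 9 of the 10 fell without plate donor 1 or 2 or perfusion donor 1, 3 or 4, and the one lost was miR-150, a lymphocyte miRNA. Its call was lost as well with a pseudocount of 10 and in a limma-voom fit. The summed normalized count of the 10 was 1530 to 6500 on plates, 165.0 to 573.0 in perfusion and 3646 to 16855 on microcarriers. In perfusion, miR-223 was at 0 in all 4 libraries and the erythroid miR-144 in donors 3 and 4, while the erythroid miR-451 averaged 145.6 ± 121 (SD, n = 4) and the endothelial miR-126-3p 144.1 ± 29.1.

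Microcarrier donor 1, the library highest in miR-224 and miR-452, also had the highest sum of these markers, 16855. In microcarrier donors 2, 3 and 4 the sums were 5438, 3646 and 3831. Among these, donor 3 had the lowest miR-224 (9.57) but the highest miR-452 (12.1). Within the plates the marker sum was highest in donors 1 and 2 (6500 and 4375) and lower in donors 3 and 4 (1530 and 1563). The members were listed highest in plate donor 4, but their counting intervals overlapped in plate donors 1, 3 and 4. Plate donor 2, listed at 0, was too shallow to place. Markers of stromal cells summed to similar levels in the 3 groups, at 416802 to 617343 on plates, 560661 to 681063 in perfusion and 485054 to 721537 on microcarriers. The part of other cell types or of serum in the levels of miR-224 and miR-452 was not tested, and the culture method and its medium cannot be told apart.

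**Figure D4:**
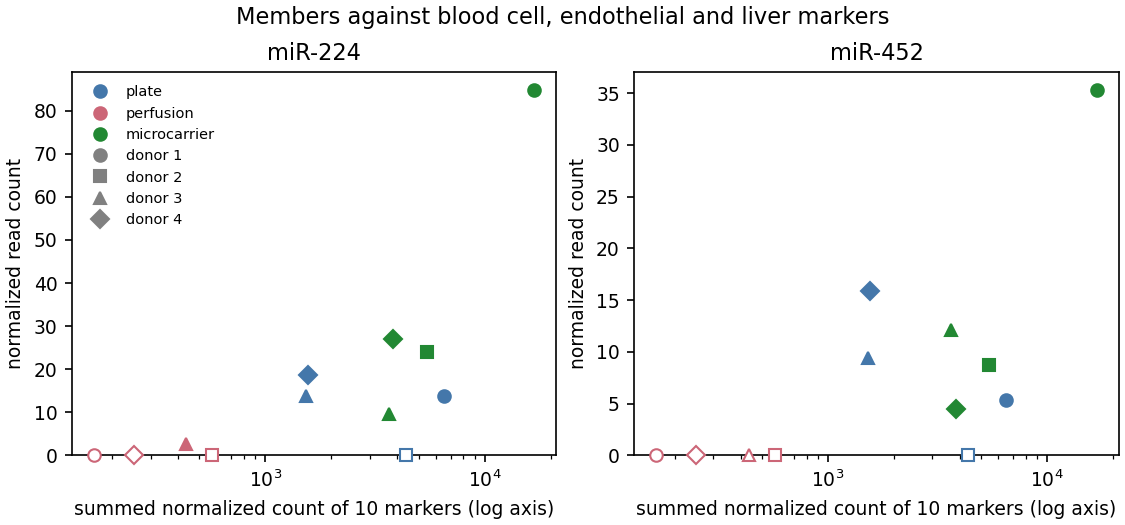
Normalized read count of miR-224 and miR-452 against the summed normalized count of 10 blood cell, endothelial and liver markers (log axis), 1 point per library, with colours for culture methods, shapes for donors and open symbols for values listed at 0. Perfusion libraries lie at the lower left and microcarrier donor 1 at the upper right. Plate donor 2, the shallowest library, has a marker sum of 4375 with both members at 0.

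Of 17 miRNAs linked to TGF-beta, the pathway that raises miR-224 in mouse granulosa cells, 1 was higher in perfusion than on plates and none lower, beside 10.3% of all rows in each direction. It was miR-155-5p, an inflammation miRNA (log2 fold change 1.74 ± 0.39). Against microcarriers miR-145-5p (1.59 ± 0.41) and miR-143-3p (0.94 ± 0.25), neighbours known from smooth muscle and stroma, were higher and the liver and gut miR-192 lower (-2.93 ± 0.70). Of all rows 5.56% were higher and 9.92% lower in that comparison. The call of miR-145-5p ended without perfusion donor 1 or 3 or microcarrier donor 1, and that of miR-143-3p without perfusion donor 2 or 3 or microcarrier donor 1 or 4. With donor as a block, where 59 of the 252 rows were called, 4 of the 17 were higher and 1 lower against microcarriers. The medians of the 17 were 0.20 and -0.01. Of 17 stromal miRNAs, miR-152 was the one called against plates (-0.77 ± 0.25), and miR-145-5p and miR-143-3p were the ones called against microcarriers. The call of miR-152 ended without microcarrier donor 3 or any single plate or perfusion library other than plate donor 1. It ended as well with library totals and in a fit of 2 groups. With donor as a block the stromal counts were 1 higher and 2 lower against plates and 4 higher and 1 lower against microcarriers. On microcarriers against plates, where 2.38% of all rows were called, no row of either list was called. With donor as a block, where 23 of the 252 rows were called, 1 row was higher and 3 lower in each list. Without plate donor 1, miR-155-5p was higher and miR-145-5p, which is in both lists, was lower.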

How the data were processed

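Per the labels' protocols, vesicles were collected from conditioned medium by differential ultracentrifugation, and small RNA libraries were made with a NEBNext kit. Bowtie did the alignment, per the submitters' processing notes; its version, the build, the miRNA set and the way reads were counted were not stated in the sources used here. What the authors deposited is a signal per mature miRNA that the file header calls a normalized read count. Dividing a library's values by their smallest common step gave whole numbers for every row (tolerance 0.001), taken here as reads.

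All 252 rows were fitted in 1 limma 3.58.1 model (R 4.3.3, trended prior) on log2(value + 1) over 12 libraries with culture method as factor, adjusted by the Benjamini-Hochberg method; all rows passed the filter of 1 or more in at least 4 libraries. The fit was tested on simulated data, with changes placed only in rows of higher mean level than the members and no donor effect. That test does not cover rows as low as the members. Fold changes on this scale understate the change of low rows. Exact permutation tests for single values and exact intervals used Python 3.11.15 with SciPy 1.17.1.

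Same-numbered libraries share a donor by the labels, and their deviations from group means correlated at 0.02 to 0.67. Correlations between different donors were not computed, so this range does not measure a donor effect. Since the donors are shared, donor as a block was an alternative. The others were library totals, pseudocounts, filters, fits of 2 groups and fits that omitted 1 library. A limma-voom fit to the recovered reads was chosen after seeing the data. Taken over the rows of the table together, no replicate pair agreed within sampling noise. The members and lists were chosen with earlier results of these data known. Named miRNAs were the members, called list rows (up to 5 per list and comparison), the 5 rows most like each member and its neighbours in mean level. Rows sharing a seed with the members were not looked for, since no sequences were used here. miR-660, miR-424 and miR-503 had no match in the pig gene table, so their chromosome is that known in humans.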

Additional observations from a re-analysis of the deposited data

Results flagged for a closer look

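In 17 groups of 4 libraries, a single library was compared with the other 3 by its gap relative to the group's range against Dixon's 95% critical value. Chance flags about 1 in 20 such groups, and 4 were found here. The flags in perfusion come from the values that chose the rows, so they cannot be set against that rate. In perfusion, donor 3 stood apart for miR-224 at a normalized read count of 2.71, which is 2 reads, with the other 3 at 0. With those 3 equal, any value above 0 in donor 3 would have been flagged. The same library therefore stood apart for the log2 ratio of miR-224 to miR-452, at 1.89. Microcarrier donor 1 stood apart for the summed count of the blood cell, endothelial and liver markers, at 16855. Plate donor 1 stood apart for the summed count of stromal miRNAs, at 416802.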

How the results depend on the processing

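On microcarriers against plates, miR-224 and miR-452 stayed higher and did not pass under any of the alternatives in which they could be fitted. For miR-224 the log2 fold change ran from 0.79 (without plate donor 2) to 2.27 (without microcarrier donor 3) with single libraries left out, and from 0.96 (pseudocount 10) to 2.63 (pseudocount 0.1) otherwise, with adjusted p from 0.201 to 0.524. For miR-452 the ranges were 0.28 to 1.64 and 0.45 to 1.93, with adjusted p from 0.313 to 0.855, and with a filter at 10 it was not tested. The replicate block, with donor as the block, gave 1.80 and 1.13. Their ratio differed by 0.27 to 1.16 with single libraries left out and did not pass (exact permutation p of 0.0571 or more). Swaps within donors gave an exact p of 0.375. With 4 donors that test cannot reach a p under 0.05, so it decides nothing.

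Of all rows, 6 were called on microcarriers against plates, 23 with the donor block, 3 in a fit of 2 groups and 3 to 12 with single libraries left out (12 without plate donor 1, 3 without plate donor 3 or 4); 51 had an unadjusted p under 0.05. Perfusion against plates gave 52, and 29 to 55 with single libraries left out (29 without perfusion donor 1, 30 without donor 3). Perfusion against microcarriers gave 39, 59 with the donor block, and 22 to 49 with single libraries left out (24, 25 and 22 without perfusion donors 1, 3 and 4). Library totals split these as 17 higher and 20 lower, against 14 and 25, and moved the median of all rows from -0.07 to 0.08. The cause of these changes was not tested, beyond fewer libraries in a fit. The edgeR alternative was not run, since the libraries held too few low values for the check of recovered reads set for it. The counting intervals, read ratios, shares and limma-voom fit use the recovered reads without that check. With 2 to 161 reads behind each listed value of the members, depth limits every statement on them.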

Other observations

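Some rows outside the lists came close to the members in perfusion and were picked after their values were seen. miR-382, from the imprinted DLK1-DIO3 cluster, stood at 10.2 to 39.2 on plates and 0 to 99.4 on microcarriers and at 0 to 2.25 in perfusion, where 2 libraries listed it at 0. miR-194a-5p, a miRNA of liver and gut, stood at 8.96 to 33.0 on plates, 4.52 to 107.3 on microcarriers and 0 to 3.88 in perfusion, again with 2 libraries at 0. Both were counted in 5 perfusion reads in all. miR-187 was counted in 10 reads on plates, 0 in perfusion and 17 on microcarriers, too few to order the groups.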
